A study of Mus musculus with 6 samples.

Results

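Small RNA fragments that come from the nuclear tRNAs for glutamate (tRNA-Glu) and aspartate (tRNA-Asp) were measured in RNA pulled down with a phospho-tau antibody, and in the RNA left in the supernatant, of mouse hippocampus. The members are all RNAs in the authors' deposited table whose name contains tRF or tiRNA, does not start with mt- and ends in a tRNA name that begins with Glu or Asp. There were 54 of them among 2380 named RNAs, of which 817 were tRNA fragments. The members hold 39 fragments of tRNA-Glu, 23 of them with the anticodon CTC (GluCTC) and 16 with TTC (GluTTC), and 15 fragments of tRNA-Asp with the anticodon GTC (AspGTC). No fragment of mitochondrial tRNA-Glu or tRNA-Asp was among the names. Levels of these 54 fragments did not pass the test between genotypes in either RNA fraction or in the ratio of the fractions. Fragments of both ends of tRNA-Asp and longer 5′ fragments of tRNA-Glu differed between single arrays of a genotype, in patterns that part of the fragments of an end shared.

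Transfer RNAs bring amino acids to the ribosome, and tRNA-Glu and tRNA-Asp read the codons of the acidic amino acids. Cells also cut tRNAs into shorter RNAs. Cleavage in the anticodon loop, for which the ribonuclease angiogenin is the best known enzyme, gives a 5′tiRNA that runs from the 5′ end to the loop and a 3′tiRNA that runs from the loop to the 3′ end. Shorter products that start at the 5′ end are called tRF5, and those that stop at the 3′ end are called tRF3. 5′ fragments of tRNA-Glu are among the most commonly described tRNA fragments in mammalian tissue, brain included, and have been studied for effects on translation and on the stress response.

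By type, the members were 23 tRF5, 14 tRF3, 10 5′tiRNA and 7 3′tiRNA. All 10 5′tiRNA were fragments of tRNA-Glu, 7 of GluCTC and 3 of GluTTC. The 7 tRF5 of tRNA-Asp stand beside 7 of GluCTC and 9 of GluTTC, the tRF3 were 5, 6 and 3, and the 3′tiRNA were 3, 3 and 1 in the same order. A longer fragment of an end contains the sequence of a shorter one from the same tRNA, and the mouse gene table of RefSeq lists 16 genes for AspGTC, 12 for GluCTC and 8 for GluTTC. Members of 1 end of a tRNA are therefore not independent, since a labelled fragment can bind to the probe of another.

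The study used 3 wild-type (WT) and 3 PS19 samples. PS19 mice carry a transgene of human tau with the mutation P301S, which causes inherited frontotemporal dementia; as background, the transgene is driven by the mouse prion protein promoter. In both genotypes frozen hippocampus was homogenised, proteins and RNA were crosslinked by UV, and complexes were captured on magnetic beads with an antibody to tau pS396, a phosphorylated serine of the protein (CLIP RNA). CLIP RNA carried Cy5, the red channel, and the unbound supernatant RNA carried Cy3, the green channel of the same array. The labels give no age, sex, strain or number of animals per sample. The dyes were not swapped and no pull-down with a control antibody was analysed here, so a ratio of CLIP over supernatant holds any difference between the dyes as well as between the fractions. P-values measure the spread between these 6 samples. The named RNAs are small RNAs, so the tau transgene itself was not checked.

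The arrays differed in detection and in scan. WT 2 and PS19 1 were scanned together, PS19 2 and PS19 3 were scanned together, and WT 1 and WT 3 were each scanned alone. The share of probes well above background ranged from 10.6% on WT 1 to 49.4% on PS19 1 in the CLIP channel and from 35.5% on PS19 2 to 63.2% on PS19 1 in the supernatant channel. Over the members, CLIP levels correlated between arrays of a shared scan by 0.97 and 0.98, and between arrays of different scans by 0.76 to 0.91. The same ranges in the supernatant were 0.96 to 0.98 and 0.63 to 0.93. The pair WT 2 and PS19 1 holds both genotypes and gives 1 comparison within a scan, which is printed beside the results. Of the fixed marker microRNAs of neurons, 3 of 6 were among the named RNAs, with 1 well above background on all 6 arrays in each channel. Named were also 2 of 5 choroid plexus, 1 of 3 oligodendrocyte and 1 of 2 microglial markers, and 0 of 4 blood and 0 of 2 endothelial ones. All named RNAs were well above background in the CLIP channel on at least 3 arrays. A marker without a name is therefore not shown to be absent from the tissue. The part of these cell types in the results was not tested.

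The deposited table names RNAs that were well above background in the CLIP channel on at least 3 of the 6 arrays, which holds for all 2380 names. All 54 members were therefore detected in the pull-down by the way the names were chosen, and 9 of them were detected on exactly 3 arrays. Detection differed by array: 53, 54, 48 and 51 members were well above background in CLIP RNA on WT 2, PS19 1, PS19 2 and PS19 3, against 11 on WT 1 and 23 on WT 3. The supernatant signal was well above background for 54, 54 and 37 members on WT 1 to WT 3 and for 54, 46 and 48 on PS19 1 to PS19 3. The 9 members detected in both channels on all 6 arrays were all fragments of tRNA-Asp. Of the 16 tRF5 of tRNA-Glu, 0 were detected in CLIP RNA on WT 1 and 1 on WT 3, and of the 10 5′tiRNA, 1 and 3 were. For the 13 3′ fragments of tRNA-Glu the counts on those arrays were 0 and 9. CLIP values of tRNA-Glu fragments on WT 1 and most of those on WT 3 are thus signals near background, and differences between genotypes that rest on them compare a measured level with such a signal.

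**Figure D1:**
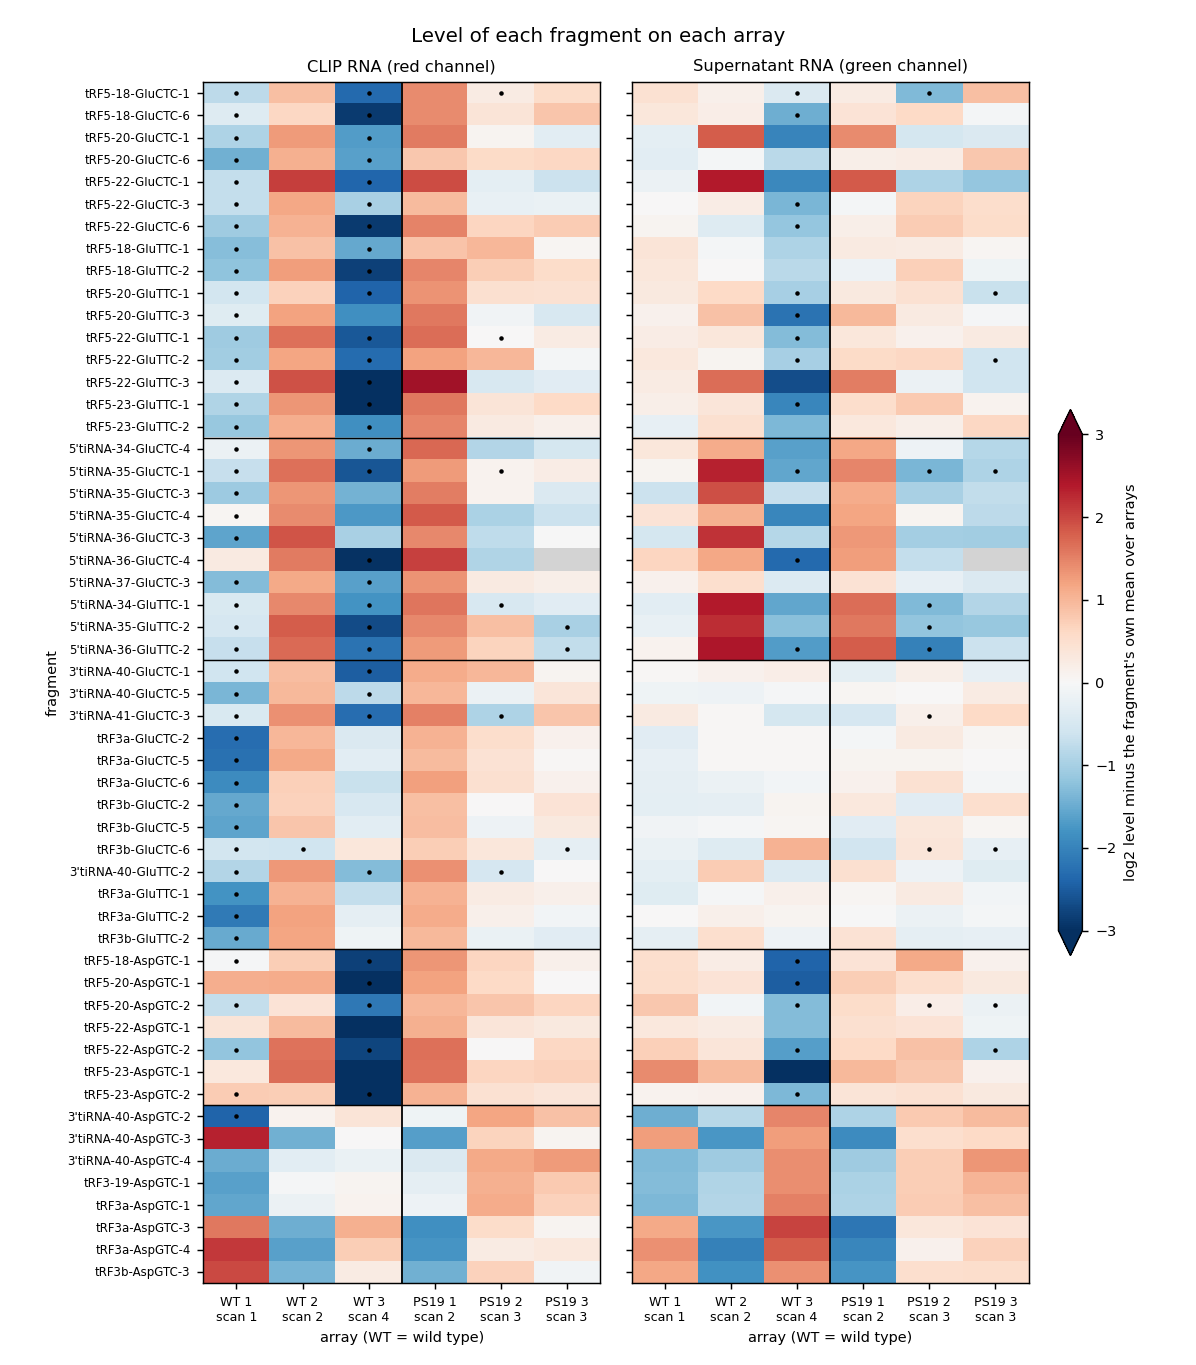
Level of each of the 54 fragments (rows) on each array (columns) in CLIP RNA and in supernatant RNA, as log2 level minus the fragment's own mean over its arrays; colours stop at 3 in either direction, a black dot marks a signal not well above background and grey a missing value. Lines part the fragments by tRNA and end. WT 3 is low for the tRF5 of both tRNAs, WT 2 and PS19 1 are high for 5′tiRNA of tRNA-Glu in both channels, and 4 of the 8 3′ fragments of tRNA-Asp are high on WT 1 and low on WT 2 and PS19 1.

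The fragments of tRNA-Asp differed by end in their pattern over the arrays. Levels are given in log2 units relative to the 75th percentile of the array's detected RNAs in that channel. The fragment tRF5-23-AspGTC-1, from the 5′ end, had supernatant levels of 4.60, 4.13 and -1.06 on WT 1 to WT 3 and of 4.15, 3.99 and 3.31 on PS19 1 to PS19 3. It was lower on WT 3 than on every other array by more than 4 log2 units. Its CLIP levels, 1.51, 2.87 and -3.77 in WT and 2.81, 1.84 and 1.89 in PS19, had the same low array. All 7 tRF5 of tRNA-Asp were lowest on WT 3 in both channels, where WT 3 was the lowest array for 54.6% of all RNAs tested in CLIP RNA and for 43.5% in the supernatant. CLIP signals of 2 of the 7 were well above background on WT 3, those of tRF5-23-AspGTC-1 and tRF5-22-AspGTC-1.

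The 3′ fragments of tRNA-Asp did not share the low array. Supernatant levels of tRF3a-AspGTC-3, a fragment of the 3′ end, were 5.83, 2.95 and 6.72 in WT and 2.54, 5.05 and 5.12 in PS19. Its CLIP levels were 4.22, 1.17 and 3.70 in WT and 0.79, 3.17 and 2.71 in PS19. It was low on WT 2 and PS19 1, the arrays of 1 scan, in both channels. In the supernatant, 7 of the 8 3′ fragments of tRNA-Asp were highest on WT 3, which was the highest array for 15.3% of all RNAs tested.

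The 8 fragments fell into 2 sets of 4 by their pattern over the arrays, a split made after the values were seen. The first set was 3′tiRNA-40-AspGTC-3, tRF3a-AspGTC-3, tRF3b-AspGTC-3 and tRF3a-AspGTC-4, 3 of which carry the same last number in their names. All 4 were lower on WT 2 and PS19 1 than on the other 4 arrays in both channels, which held for 2.95% of all RNAs tested in CLIP RNA and 10% in the supernatant. All 4 were highest on WT 1 in CLIP RNA. The second set was 3′tiRNA-40-AspGTC-2, 3′tiRNA-40-AspGTC-4, tRF3-19-AspGTC-1 and tRF3a-AspGTC-1, and all 4 were lowest on WT 1 in both channels, where WT 1 was the lowest array for 37.7% of all RNAs tested in CLIP RNA and for 12.1% in the supernatant. For example, tRF3a-AspGTC-1 had CLIP levels of -2.62, -1.23 and -0.96 in WT and -1.22, 0.06 and -0.36 in PS19. Names that end in AspGTC-4 fell in both sets, and the meaning of the last number was not given.

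**Figure D2:**
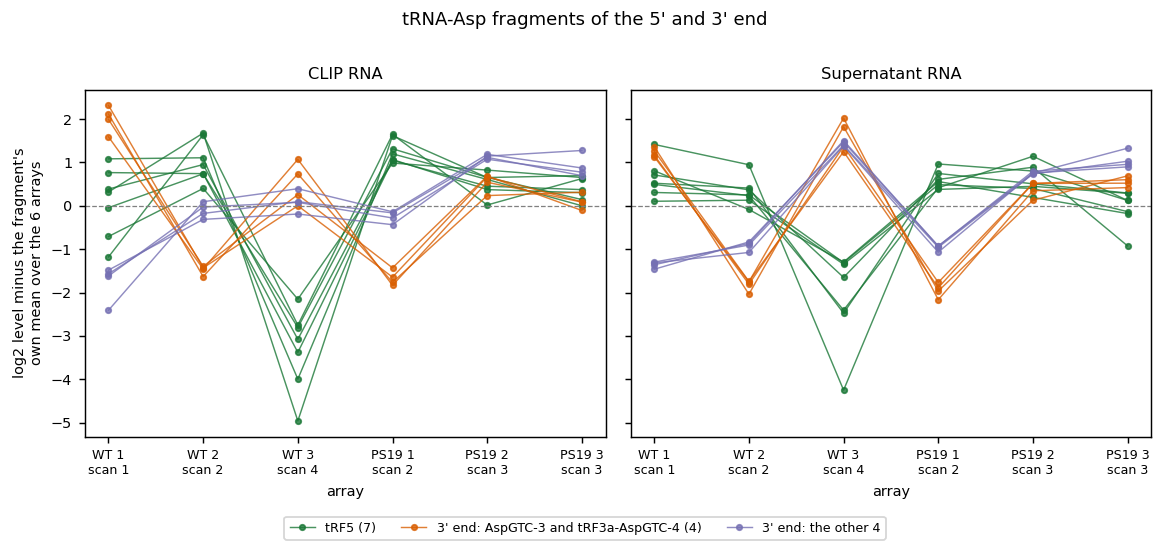
The 15 fragments of tRNA-Asp in CLIP RNA and in supernatant RNA, as log2 level minus each fragment's own mean over the 6 arrays; each line is a fragment and the arrays are marked with their scan. The 7 tRF5 dip on WT 3 in both panels, and the 4 3′ fragments named AspGTC-3 or tRF3a-AspGTC-4 dip on WT 2 and PS19 1, while the other 4 3′ fragments are lowest on WT 1.

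The 5′tiRNA of tRNA-Glu had another pattern, with high values on the arrays of 1 scan. Supernatant levels of 5′tiRNA-36-GluCTC-3 were -1.07, 1.62 and -1.40 in WT and 0.76, -1.56 and -1.58 in PS19. Those of 5′tiRNA-34-GluTTC-1 were -1.78, 0.92 and -3.03 in WT and 0.20, -2.79 and -2.34 in PS19. Both were high on WT 2 and PS19 1 and low on the rest. All 9 5′tiRNA with a value on each array were higher on WT 2 and PS19 1 than on the other 4 arrays in the supernatant, against 14.9% of all RNAs tested. In CLIP RNA the same 9 were also higher on this pair, where 70.4% of all RNAs tested were. It thus held within each genotype, WT 2 against WT 1 and WT 3 and PS19 1 against PS19 2 and PS19 3, and the scan and the samples scanned cannot be told apart.

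The tRF5 of tRNA-Glu partly followed the 5′tiRNA. The fragment tRF5-22-GluCTC-1, from the same end, had supernatant levels of -0.25, 2.31 and -2.01 in WT and 1.76, -1.01 and -1.24 in PS19. With tRF5-20-GluCTC-1, tRF5-20-GluTTC-3, tRF5-22-GluTTC-1 and tRF5-22-GluTTC-3 it made up 5 of 16 tRF5 of tRNA-Glu with both arrays of that scan highest in the supernatant. Like the tRF5 of tRNA-Asp, the tRF5 of tRNA-Glu were low on WT 3, which was the lowest array for 16 of 16 in CLIP RNA and for 15 of 16 in the supernatant.

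Several 3′ fragments of tRNA-Glu were even over arrays in the supernatant. The fragment 3′tiRNA-40-GluCTC-5 had supernatant levels of -2.01, -2.04 and -1.93 in WT and -1.84, -1.87 and -1.64 in PS19. Those of tRF3a-GluTTC-2 were -0.53, -0.39 and -0.47 in WT and -0.57, -0.72 and -0.59 in PS19. Both stayed within 0.5 log2 units over the 6 arrays. In CLIP RNA, WT 1 was the lowest array for 9 of the 13, as it was for 37.7% of all RNAs tested, with no member of the 13 well above background there.

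Between genotypes, none of the 54 members passed an adjusted p of 0.05 in the CLIP level, where 0% of the 2356 RNAs tested passed. The test was limma's moderated test with Benjamini-Hochberg adjustment over all RNAs, and the members' adjusted p was 0.77 or more. No member had an unadjusted p under 0.05, against 1.91% higher and 0.255% lower over all RNAs. The median RNA was 0.85 log2 units higher in PS19 than in WT on this scale, so each CLIP difference below has that of the median RNA subtracted. The p-values and adjusted p were computed for the difference before this subtraction. The standard error was 1.04 log2 units for all members with complete values, since limma pooled the variance over RNAs. Changes of the size seen here could therefore not be told from the spread between arrays. With array quality weights 1 member passed, 3′tiRNA-40-AspGTC-2 (1.70, adjusted p = 0.0496), where 1.53% of all RNAs did; the estimation of these weights did not reach its convergence tolerance. With weights estimated over RNAs with missing values too, 33 of the 54 passed, where 62.7% of all RNAs did. The members' median difference was 0.21, with 35 members above the median RNA and 19 below, where 50% of all RNAs are above by definition. Without WT 3 the split was 27 and 27.

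Within this, the tRF5 lay above the median RNA and part of the 3′ fragments of tRNA-Asp below it. For the tRF5, 20 of 23 were above, with a median difference of 0.48, beside 0.29 and 277 of 388 for the tRF5 of all other nuclear tRNAs. Without WT 3, 12 of 23 were above, with a median of 0.07. All 7 tRF5 of tRNA-Asp were above, by 0.31 to 1.13, and without WT 3 the count was 2 of 7 with a median of -0.48. The fragment tRF5-23-AspGTC-1 had the highest difference, 1.13 (SE 1.04), which became -0.48 without WT 3. Before subtraction of the median RNA its difference was 1.98 (limma adjusted p = 0.77). For tRF5-22-GluCTC-6, whose CLIP levels were -6.26, -4.13 and -8.07 in WT and -3.69, -4.54 and -4.42 in PS19, the difference was 1.09 (SE 1.04), with WT 2 inside the range of PS19. Before the subtraction it was 1.94 (limma adjusted p = 0.77). The values of tRF5-18-GluTTC-2 and tRF5-18-GluCTC-6, 0.99 and 0.91, likewise rest on WT 1 and WT 3, where neither was well above background. The groups did not overlap for 1 member, tRF5-20-AspGTC-2, which was higher in PS19; this held for 4.42% of all RNAs with complete values. Its CLIP levels were -6.16, -5.06 and -7.61 in WT and -4.47, -4.63 and -4.80 in PS19, and its difference was 0.79. In CLIP RNA it was well above background on all 3 PS19 arrays but in WT only on WT 2, so that the WT values on WT 1 and WT 3 are signals near background.

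The 4 3′ fragments of tRNA-Asp that were highest on WT 1 had CLIP differences of -1.66 (tRF3a-AspGTC-4), -1.65 (tRF3a-AspGTC-3), -1.44 (3′tiRNA-40-AspGTC-3) and -1.42 (tRF3b-AspGTC-3), each with SE 1.04. Before subtraction of the median RNA they were -0.81, -0.80, -0.59 and -0.57 in the same order, with a limma adjusted p of 0.77 or 0.80. CLIP levels of tRF3a-AspGTC-4 were 4.37, 0.63 and 2.99 in WT and 0.49, 2.49 and 2.57 in PS19. The genotypes overlapped, and the lowest value of each lay on WT 2 and PS19 1. Without WT 1 the median of the 4 was -0.47, without WT 2 it was -3.12, and without PS19 1 it was -0.60. Under quantile normalisation the differences of 3′tiRNA-40-AspGTC-3 and tRF3b-AspGTC-3 turned to 0.08 and 0.28. The other 4 3′ fragments of tRNA-Asp had differences of 0.20 to 0.47. Within the shared scan, PS19 1 minus WT 2 was -0.08 as the median of all members, -0.03 for the tRF5 of tRNA-Asp and -0.32 for the set of 4.

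For the 5′tiRNA and 3′ fragments of tRNA-Glu, the median CLIP difference depended on single arrays. The 10 5′tiRNA had a median difference of -0.05, from -0.69 to 0.33, beside 0.01 for the 5′tiRNA of other nuclear tRNAs. Without WT 3 it was -0.61, with 1 above the median RNA and 9 below, without WT 2 it was 0.23, and without PS19 1 it was -0.33 over the 9 that could be fitted. The 13 3′ fragments of tRNA-Glu had a median of 0.04, with 7 above and 6 below. Without WT 1, where none of the 13 was detected, the median was -0.33 with 2 above, and without WT 3 it was 0.38 with 10 above. The lowest, 5′tiRNA-35-GluCTC-4, had CLIP levels of -3.56, -2.20 and -5.34 in WT and -1.79, -4.56 and -4.26 in PS19, with the highest value of each genotype on the shared scan. The member 5′tiRNA-36-GluCTC-4 had no value on PS19 3, where a spot was an outlier, and its difference of 0.11 (SE 1.16) rests on 5 arrays. In the authors' deposited table, 6 members had an unadjusted p under 0.05, all 6 higher in PS19, where 2.35% of its 2380 RNAs were higher and 0.042% lower at that p, and the smallest adjusted p of a member was 0.999. All 6 were tRF5 of tRNA-Glu, and none of them was well above background in CLIP RNA on WT 1 or WT 3.

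**Figure D3:**
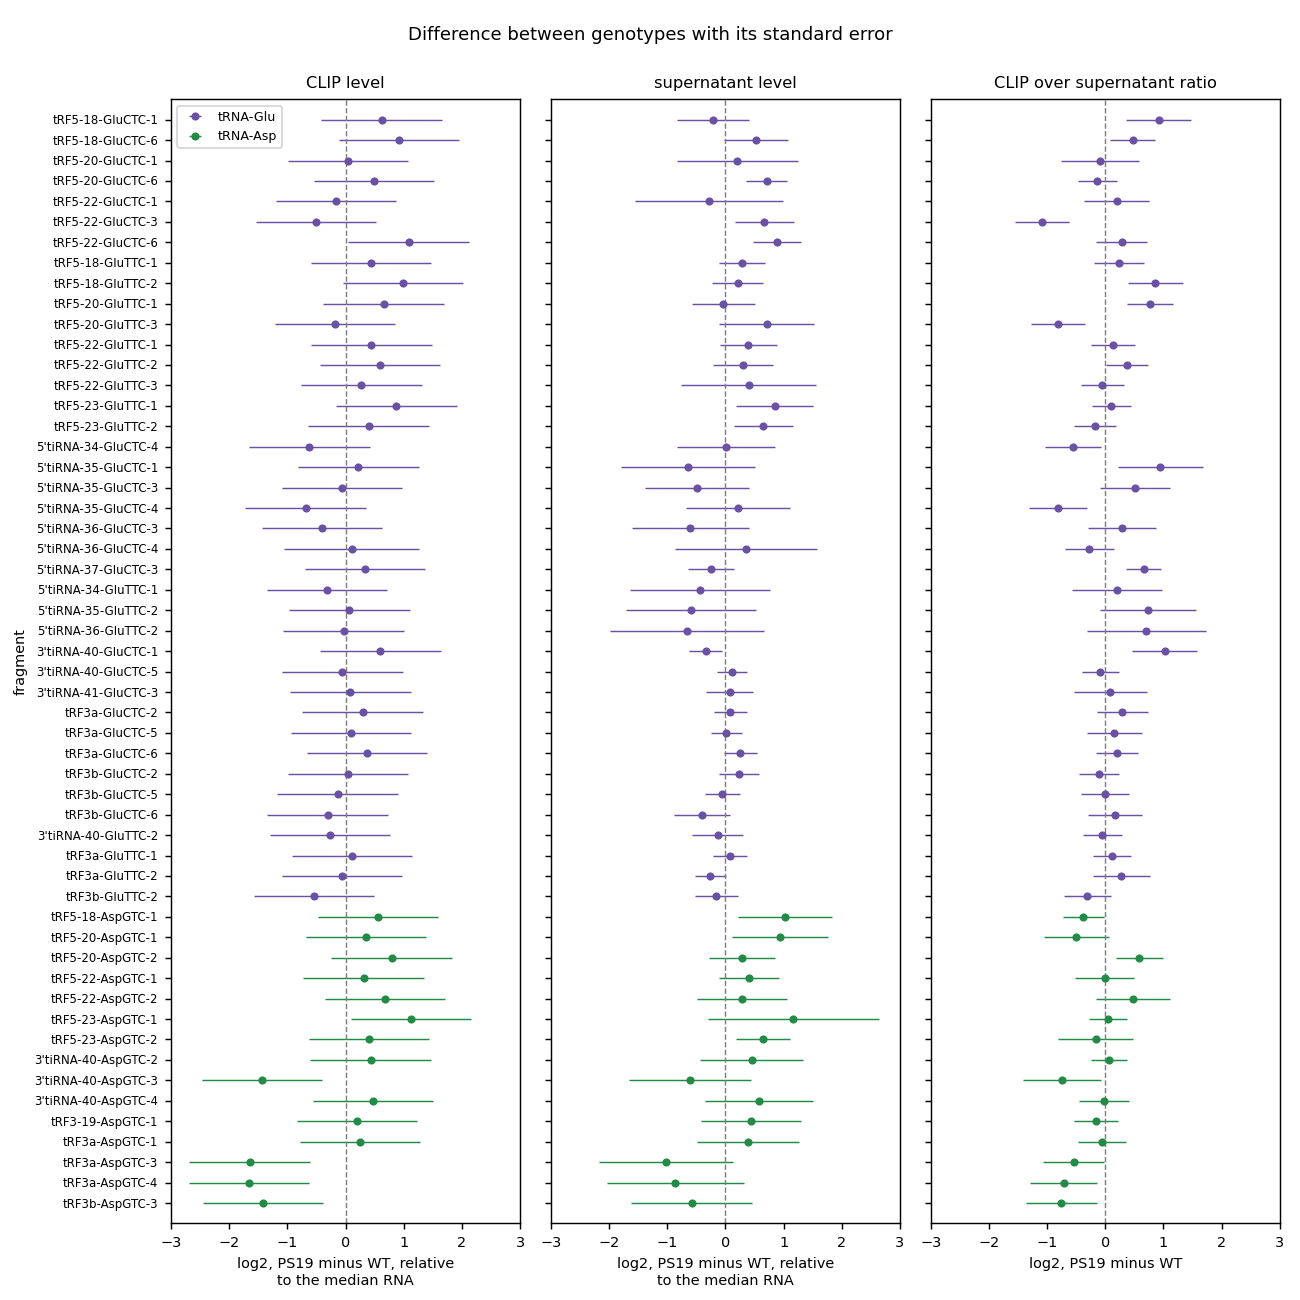
Difference between genotypes, PS19 minus WT in log2 units, for each of the 54 fragments in the CLIP level, the supernatant level and the ratio of CLIP over supernatant; points are the fitted differences, bars 1 standard error, and the first 2 panels are relative to the median RNA tested. Differences in the CLIP level run from -1.66 to 1.13, and no fragment passed the adjusted p in any panel. In the first 2 panels the adjusted p is for the difference before that of the median RNA was subtracted.

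In the supernatant level, too, none of the 54 members passed, where 0% of 3727 RNAs did. The smallest adjusted p of a member was 0.93 with limma, and standard errors ran from 0.26 to 1.47. The median RNA differed by 0.10 between genotypes. This was subtracted from each supernatant difference below, while limma's p-values are for the difference before the subtraction. Relative to the median RNA the members' median difference was 0.21, with 34 above and 20 below. Without WT 1 it was -0.0068 with 27 and 27, without WT 3 it was -0.023 with 24 and 30, and without WT 2 it was 0.30 with 44 and 10. The tRF5 were above for 20 of 23 members with a median of 0.41, beside 0.26 for tRF5 of other nuclear tRNAs, and without WT 3 the count was 11 of 23 and the median -0.01. For the 5′tiRNA the median was -0.46, which became 0.35 without WT 2 and -1.34 without PS19 1, and for the tRF3 it was -0.02. In such tissue samples, fewer cells of a type and less of an RNA per cell cannot be told apart.

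In the supernatant, 1 member had an unadjusted p under 0.05, tRF5-22-GluCTC-6, against 1.74% of RNAs in this direction and 1.05% in the other. Its levels were -2.50, -2.97 and -3.75 in WT and -2.41, -1.83 and -2.04 in PS19, so that all 3 PS19 samples lay above all 3 WT samples. The lowest of these, on WT 3, was a signal not well above background. The difference was 0.89 (SE 0.41), and before subtraction of the median RNA it was 0.98 (limma adjusted p = 0.93). The groups also did not overlap for tRF5-20-GluCTC-6, with levels of -2.55, -2.29 and -3.03 in WT and -2.04, -2.01 and -1.42 in PS19. Nor did they for tRF5-23-AspGTC-2, with -2.57, -2.54 and -4.02 in WT and -2.29, -2.22 and -2.38 in PS19. For tRF5-23-AspGTC-2, too, the signal on WT 3 was not well above background. In all, 5 members were higher in PS19 with no overlap, where 7.42% of all RNAs were, and 1 was lower, where 2.43% were. The lower one was tRF3a-GluTTC-2, with a difference of -0.26 (SE 0.26). For 3′tiRNA-40-GluCTC-1, tRF3b-GluCTC-6, tRF3a-AspGTC-3 and tRF3a-AspGTC-4, the members with the smallest p in that direction, differences were -0.34, -0.40, -1.03 and -0.86, and the genotypes overlapped for all 4. When 1 array was left out, the difference ran from -2.19 to -0.14 for tRF3a-AspGTC-3 and from -2.12 to -0.033 for tRF3a-AspGTC-4. For the set of 4 3′ fragments of tRNA-Asp that holds both, the median of -0.74 became 0.078 without PS19 1, -0.019 without WT 3 and -1.89 without WT 2.

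The ratio of CLIP over supernatant, centred on the median RNA of each array, compares the fractions of 1 sample. Its difference between genotypes did not pass for any of the 54 members, where 0% of 3971 RNAs did, and no member had an unadjusted p under 0.05, where 2.09% were higher and 2.06% lower with limma. The members' median difference was 0.07, with 29 above 0 and 25 below, and standard errors ran from 0.30 to 1.03. The groups did not overlap for 5′tiRNA-37-GluCTC-3, with ratios of -0.60, -0.27 and -0.43 in WT and -0.06, 0.38 and 0.36 in PS19, a difference of 0.66 (SE 0.30, adjusted p = 0.99). This held for 4.19% of all RNAs, and for 4.5% in the other direction, where no member was found. The largest differences were 1.02 (SE 0.56) for 3′tiRNA-40-GluCTC-1 and -1.09 (SE 0.47) for tRF5-22-GluCTC-3, and the genotypes overlapped in both. CLIP signals of both, and of 5′tiRNA-37-GluCTC-3, were not well above background on WT 1 and WT 3. Other named differences were 0.86 for tRF5-18-GluTTC-2, 0.77 for tRF5-20-GluTTC-1, -0.82 for 5′tiRNA-35-GluCTC-4 and -0.81 for tRF5-20-GluTTC-3.

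**Figure D4:**
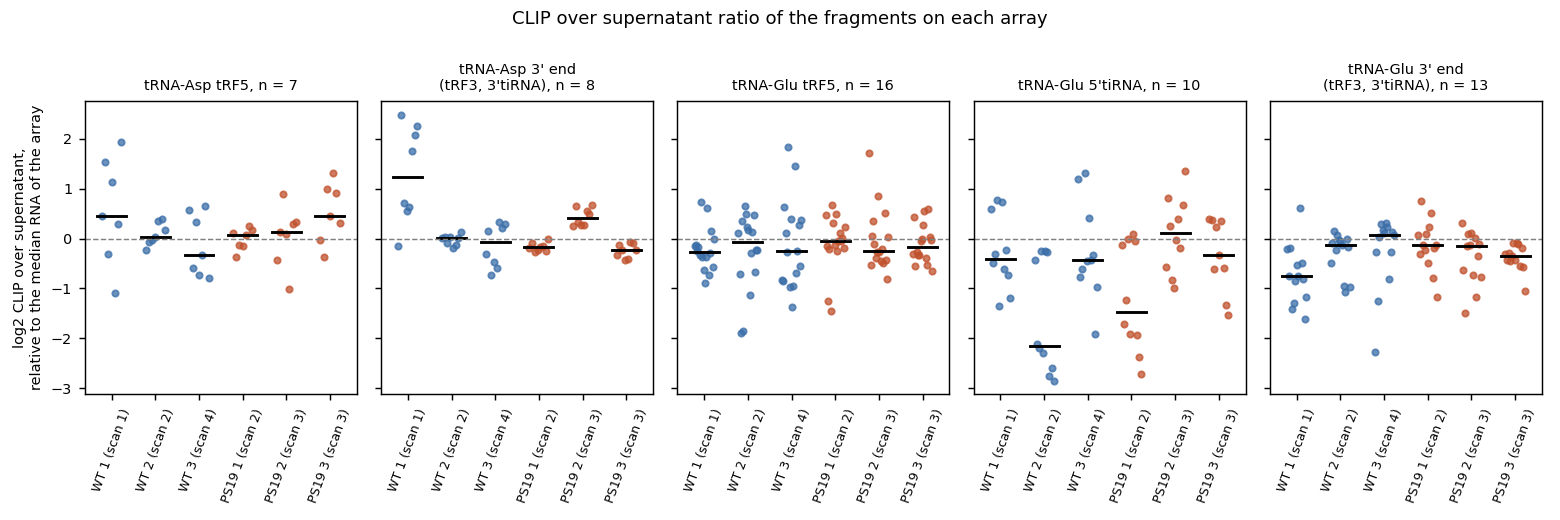
Log2 ratio of CLIP over supernatant on each array for the fragments grouped by tRNA and end; each point is a fragment, the black bar is the median, blue arrays are WT and orange arrays PS19, and 0 is the median RNA of the array. Medians of the 5′tiRNA of tRNA-Glu lie at -2.15 on WT 2 and -1.48 on PS19 1 and between -0.44 and 0.11 on the other arrays, and the 3′ fragments of tRNA-Asp are spread upwards on WT 1.

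Within a genotype, no member's ratio differed from that of the median RNA at an adjusted p of 0.05. Over all 3971 RNAs, 0.0755% passed as higher in WT and 0.101% in PS19, and 0% as lower in either. The members' median was -0.21 in WT and -0.11 in PS19. Fragments of tRNA-Asp had medians of 0.27 and 0.11, and those of tRNA-Glu -0.43 and -0.20. Of 39 tRNA-Glu fragments, 31 were below 0 in each genotype, and 11 and 9 of 15 tRNA-Asp fragments were above. Over all 3971 RNAs, 2066 were below 0 in WT and 2073 in PS19. Of other nuclear fragments, 56 of 69 tRF3, 31 of 40 3′tiRNA, 126 of 214 5′tiRNA and 220 of 388 tRF5 were below 0 in WT. The WT ratios of tRNA-Glu fragments include CLIP signals near background on WT 1 and WT 3. The order of tRNA-Asp above tRNA-Glu did not hold on every array. The median of the tRNA-Asp fragments was 0.70, 0.016 and -0.30 on WT 1 to WT 3 and -0.14, 0.29 and -0.092 on PS19 1 to PS19 3, and that of the tRNA-Glu fragments was -0.38, -0.24 and -0.26 and -0.13, -0.14 and -0.31. On WT 3 and PS19 1 the tRNA-Asp median was not above that of tRNA-Glu. At an unadjusted limma p under 0.05, 7 members were lower in WT, where 3.63% of all RNAs were, and 3 in PS19, where 3.83% were, and these were fragments of tRNA-Glu. Of 711 fragments of other nuclear tRNAs, 68 were lower in WT and 22 in PS19. The 1 higher member was tRF5-22-GluCTC-3 in WT, where 4.36% were higher, and there was none in PS19, where 3.1% were.

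In PS19 the fragments with the lowest p were 3′ fragments of GluTTC. Ratios of 3′tiRNA-40-GluTTC-2 were -0.48, -1.07 and -0.81 in WT and -0.78, -1.18 and -0.56 in PS19. It was below 0 on all 6 arrays, with means of -0.79 and -0.84 and limma adjusted p = 0.52 in both genotypes. Its CLIP signal was well above background on 3 of these arrays only, WT 2, PS19 1 and PS19 3. For tRF3b-GluTTC-2 the ratios were -1.17, -0.97 and 0.07 in WT and -1.17, -0.78 and -1.05 in PS19, with 1 WT array near 0.

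For 5′tiRNA-36-GluCTC-3 they were -1.35, -2.29 and -0.44 in WT and -1.92, -0.98 and -0.33 in PS19, all below 0 and lowest on the shared scan. The ratio was below 0 on all 6 arrays for 7 of 53 members with complete values, where 4.35% of all RNAs were, and for all 7 the tRNA was tRNA-Glu. They were 3′tiRNA-40-GluCTC-5, 3′tiRNA-40-GluTTC-2, 5′tiRNA-34-GluTTC-1, 5′tiRNA-36-GluCTC-3, tRF3a-GluTTC-1, tRF5-22-GluCTC-1 and tRF5-23-GluTTC-1. CLIP signals of all 7 were not well above background on WT 1. On WT 3, only those of 5′tiRNA-36-GluCTC-3 and tRF3a-GluTTC-1 were well above it. The CLIP signals of 3′tiRNA-40-GluTTC-2 and 5′tiRNA-34-GluTTC-1 were not well above background on PS19 2 either. The count was 8 after loess, 4 after the normexp background correction and 10 without centring. Among the fragments of other nuclear tRNAs the ratio was below 0 on all 6 arrays for 57 of 703. By type these were 16 of 68 tRF3, 9 of 40 3′tiRNA, 17 of 211 5′tiRNA and 15 of 384 tRF5. The ratio was above 0 on all 6 arrays for 1 member, tRF5-23-AspGTC-1, with 0.29, 0.39 and 0.65 in WT and 0.26, 0.29 and 0.91 in PS19, where 4.76% of all RNAs were; after the normexp correction its WT mean was -0.71.

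By type, the low ratios of the 5′tiRNA lay on the arrays of 1 scan. Their median ratio was -0.41, -2.15 and -0.44 on WT 1 to WT 3 and -1.48, 0.11 and -0.33 on PS19 1 to PS19 3. The 6 fragments 5′tiRNA-35-GluCTC-1, 5′tiRNA-35-GluCTC-3, 5′tiRNA-36-GluCTC-3, 5′tiRNA-34-GluTTC-1, 5′tiRNA-35-GluTTC-2 and 5′tiRNA-36-GluTTC-2 were lower on WT 2 and PS19 1 than on the other 4 arrays, where 12.5% of all RNAs were. No 5′tiRNA was higher on this pair, where 8.51% of all RNAs were. On these 2 arrays their ratios ran from -2.85 to -1.24. The other 5′tiRNA did not share this: ratios of 5′tiRNA-34-GluCTC-4 were -0.42 on WT 2 and -0.13 on PS19 1. The 5′tiRNA of other nuclear tRNAs had medians of -0.12 on both of these arrays.

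For the 3′ fragments of tRNA-Asp, the ratio was highest on WT 1 in 7 of 8, where 20.6% of all RNAs were. On WT 1 it was 2.48 for 3′tiRNA-40-AspGTC-3, 2.27 for tRF3b-AspGTC-3, 2.08 for tRF3a-AspGTC-4 and 1.76 for tRF3a-AspGTC-3. On the other 5 arrays the ratios of these 4 ran from -0.24 to 0.67. The differences between genotypes in this ratio, -0.54 to -0.75, were therefore decided by WT 1, and without it their median was -0.03. Among the other 4, tRF3a-AspGTC-1 had ratios from -0.59 to 0.63 and 3′tiRNA-40-AspGTC-4 from -0.73 to 0.70.

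Full-length tRNAs of the same kinds were measured by 4 named probe sets, and several spots were outliers. CLIP levels of Asp-GTC-2, a full-length tRNA-Asp, were 4.99, 7.24 and 4.05 in WT and 7.26, 6.49 and 5.77 in PS19. It was highest on WT 2 and PS19 1 and lowest on WT 3. Its difference was 0.23 (SE 1.04), and before subtraction of the median RNA it was 1.08 (limma adjusted p = 0.77). Asp-GTC-1 had values on 4 arrays, with a difference of 0.72 (SE 1.27), and of 1.57 before the subtraction (limma adjusted p = 0.77). Asp-GTC-4 had too few values in WT to be tested. For Glu-CTC-1, the full-length tRNA-Glu, CLIP levels were -2.95, -3.84 and -8.44 in WT and -3.67, -5.65 and -5.42 in PS19, again lowest on WT 3. Its difference was -0.69 (SE 1.04) relative to the median RNA. Before the subtraction it was 0.16, of the opposite sign (limma adjusted p = 0.92).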

How the data were processed

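Small RNA was measured on 2-colour arrays of 6 hippocampal samples, 3 WT and 3 PS19, grouped by their titles. The deposited scanner files give each spot's intensity, background-subtracted and dye-normalised, per the file headers; the submitters' processing notes name Agilent Feature Extraction 11.0.1.1. The value table deposited by the authors holds log2 values, which equal the log2 red processed signal minus 1 offset per array. The table of 2380 RNAs deposited by the authors gives, per RNA, a p-value with its adjusted value and a fold change on the log2 scale; names were linked to probes by matching these to recomputed values (tolerance 1e-09 and 1e-07), and every name matched 1 probe set.

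The log2 processed signal of an RNA is the mean of its probes; outlier spots were left out, and no spot was saturated. CLIP and supernatant levels were scaled to each array's 75th percentile over RNAs well above background on all 6 arrays (550 and 1703). Ratios were centred on the array median, without loess. Differences in the CLIP and supernatant levels are printed minus that of the median RNA tested, and their p-values are for the difference before this subtraction. RNAs well above background on at least 3 arrays (either channel for the ratio) with at least 2 values per genotype were tested with limma 3.58.1 in R 4.3.3 (Benjamini-Hochberg over all RNAs, adjusted p under 0.05). The fit was also run on simulated data with noise independent between arrays. Those data lack the likeness of arrays within a scan, so the run does not show how the fit behaves with it. The number of arrays limits the precision.

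The members and lists were chosen with earlier results of these data known. Members are named by a rule: those that passed, or the 4 per direction with the smallest p, the highest and lowest ratio per type, and any with a missing value. Fragments added beyond it were chosen after their values were seen. No sequence is printed, since none for these fragments was in the files used here. Alternatives covered background correction, scaling, filters, array weights, the scan, the replicate number and left-out arrays.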

Additional observations from a re-analysis of the deposited data

How the results depend on the processing

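With scan as a fixed block, only PS19 1 minus WT 2 compares the genotypes, since no other scan holds both. That setting repeats the comparison within the shared scan and is given as a difference only. Under the other alternatives, no member passed in the supernatant level or in the ratio. In the CLIP level 1 member, 3′tiRNA-40-AspGTC-2, passed with array quality weights estimated over RNAs with complete values (1.70, limma adjusted p = 0.0496, with 36 of 2356 RNAs passing, 1.53%), and the estimation of these weights did not reach its convergence tolerance. With weights estimated over all RNAs, an alternative chosen after seeing the data, 33 members and 1478 of 2356 RNAs (62.7%) passed; the cause was not tested. The replicate number as a block gave 0 members in the CLIP level, the supernatant level and the ratio. Deviations of samples with the same number correlated by -0.08, -0.52 and 0.32 in the CLIP level, so that the samples share only a number.

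The members' median CLIP difference, 0.21, was 0.013 after normexp, 0.59 without a filter on dim RNAs and 0.69 over the 9 members detected on all 6 arrays. It was -0.082 with scan as a fixed block (PS19 1 minus WT 2 alone), -0.044 with scan as a random block and 0.040 with weights estimated over all RNAs. Without 1 array it ran from -0.022 to 0.35; it was -0.022 without WT 3, 0.022 without WT 1 and 0.087 without PS19 2. The median ratio difference, 0.07, was 0.30 without centring and 0.36 without a filter. The median ratio in WT, -0.21, was -0.43 without centring, -0.13 after normexp and -0.52 without a filter.

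Each result on a named member was compared with the main setting once per alternative. Of these comparisons, 610 kept the direction and side of the threshold. In 25 the sign changed, none of these past the threshold, and 7 passed with weights over all RNAs. A result counts once per alternative, so the share of results that changed sign under some alternative is larger than these counts show. The causes were not tested. In the CLIP level, tRF5-23-AspGTC-1 was -0.20 with scan as a fixed block, -0.11 as a random block, -0.46 with weights over all RNAs and -0.48 without WT 3 (up to 1.99 without WT 1), and quantile normalisation gave 0.079 for 3′tiRNA-40-AspGTC-3 and 0.28 for tRF3b-AspGTC-3. In the supernatant, quantile normalisation gave 0.28 for tRF3a-AspGTC-3 and 0.52 for tRF3a-AspGTC-4, array weights gave 0.36, 0.49 and, for tRF3b-GluCTC-6, 0.17, the fixed scan block gave -0.36 for tRF5-22-GluCTC-3 and 0.00023 for tRF3a-AspGTC-4, and tRF3b-GluCTC-6 was 0.15 without WT 3 and -0.73 without WT 2. In the ratio difference, normexp gave -0.023 for tRF5-20-GluTTC-1, 0.18 for tRF5-20-GluTTC-3, 0.24 for 5′tiRNA-35-GluCTC-4 and 0.47 for tRF3b-AspGTC-3, and the fixed scan block gave 0.013 for tRF5-22-GluCTC-3, 0.24 for tRF5-20-GluTTC-3 and 0.26 for 5′tiRNA-35-GluCTC-4. Normexp also turned the WT ratio of tRF3b-AspGTC-3 to -0.011 and of tRF5-23-AspGTC-1 to -0.71, and the PS19 ratio of tRF5-18-GluCTC-1 to -0.031 and of tRF5-22-GluTTC-2 to -0.0080. CLIP signals near background on WT 1 and WT 3 limit the comparisons of tRNA-Glu fragments.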
